A study of Mus musculus with 18 samples.

Results

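Integrins and SLAM-type adhesion molecules are cell surface proteins by which a lymphocyte binds other cells and the matrix. The transcripts of 10 such genes were followed here, chosen by name: the integrin chains Itga4, Itgb7, Itgb1, Itgal and Itgb2, the integrin ligand Icam1, the immunoglobulin-type receptors Cd2, Cd48 and Cd84, and the hyaluronan receptor Cd44. They are 10 of 16545 genes in the deposited table, and all 10 were above 0 in each of the 18 libraries. The libraries came from mouse splenic B cells, purified by magnetic enrichment and cell sorting and cultured with lipopolysaccharide (LPS), the outer membrane glycolipid of bacteria that TLR4 senses. They were taken on day 0 (D0, before culture), day 1 (D1) and day 2 (D2). Each of the 6 groups, 2 genotypes at 3 days, held 3 libraries from separate C57BL/6 mice.

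Zbtb24 B-CKO mice (B-CKO) carried 2 loxp-flanked alleles of Zbtb24, a zinc finger transcription factor gene, and 1 copy of a B cell-specific Cre allele, so that the flanked exon with the translation start was lost in B cells. Control mice (CON) were littermates with intact Zbtb24 that, by the study's methods, carried the same single Cre allele. Their ages and sexes, and the LPS dose of these cultures, are not given in the sources used here. No library of cells cultured without LPS was analysed here, so LPS and time in culture cannot be told apart.

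Integrins are pairs of an alpha and a beta chain that switch from a resting to a binding shape when signals inside the cell bring talin and kindlin to the beta tail. The alpha4 chain pairs with beta7, which binds MAdCAM-1 on gut vessels, or with beta1, which binds VCAM-1 and fibronectin. The alphaL and beta2 chains form LFA-1, whose ligand ICAM-1 is made by many activated cells. CD2 and CD48 bind each other, CD84 binds itself, and these 3 belong to or are close relatives of the SLAM family, which tunes contacts between lymphocytes. CD44 binds hyaluronan and is a common marker of activated lymphocytes. B cells use these molecules to stay in or leave lymphoid tissue, to form contacts with T cells and to hold on to antigen-bearing surfaces.

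The B cell markers summed to between 5808 and 7668 FPKM per library at D0 and between 2764 and 3474 FPKM at D1 and D2, with Cd79a, a chain of the B cell receptor complex, highest. FPKM scale the fragment number of a gene by its transcript length and by all fragments mapped. The 14 T cell markers, several of which B cells also express, summed to 31.7 to 47.6 FPKM at D0 and to 10.8 to 18.02 FPKM later, and the CD3 chains Cd3d, Cd3e and Cd3g lay at or below 3.01 FPKM at D0. Myeloid markers summed to 9.55 to 16.9 FPKM at D0 and 5.04 to 7.85 FPKM later, and NK cell markers to 6.70 to 19.0 FPKM at D0 and at most 1.49 FPKM later. Platelet and erythroid markers summed to 13.7 to 74.1 FPKM at D0 and 8.04 to 16.7 FPKM later. Zbtb24, the deleted gene, averaged 45.4 ± 7.24 FPKM (SD, n = 3) in CON and 12.5 ± 1.90 in B-CKO at D0, 17.6 ± 1.66 and 10.9 ± 0.677 at D1, and 15.2 ± 1.85 and 10.4 ± 1.07 at D2, with no overlap of genotypes at any day. The values cover the whole transcript, of which the flanked exon is a part. Replicates differed more at D0, with a median SD of 0.17 on the log2 scale in CON and 0.16 in B-CKO over genes at 1 FPKM or above, than at D1 (0.056 and 0.054) or D2 (0.075 and 0.085).

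Promoter sequences are shown for Itgb1 and Itga4, partner chains whose transcripts moved in opposite directions, and for Icam1, which holds a kappaB letter match. Each is the 250 bases before the start site in RefSeq (GRCm38.p6), 5′ to 3′ on the strand of the gene, with motif matches in capitals. Itgb1 is at chr8:128685404-128685653, Itga4 at chr2:79255176-79255425 and Icam1 at chr9:21015690-21015939, all on the plus strand. A stretch just after the start site was found in the GENCODE transcripts of Itgb1 and Itga4 but not in those of Icam1. Positions counted from the Icam1 start are therefore less certain.

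Itgb1: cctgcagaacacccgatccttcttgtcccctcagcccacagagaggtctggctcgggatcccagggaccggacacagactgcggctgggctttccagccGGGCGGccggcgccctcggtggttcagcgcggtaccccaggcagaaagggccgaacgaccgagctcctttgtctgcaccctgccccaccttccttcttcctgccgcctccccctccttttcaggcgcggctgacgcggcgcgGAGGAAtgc

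Itga4: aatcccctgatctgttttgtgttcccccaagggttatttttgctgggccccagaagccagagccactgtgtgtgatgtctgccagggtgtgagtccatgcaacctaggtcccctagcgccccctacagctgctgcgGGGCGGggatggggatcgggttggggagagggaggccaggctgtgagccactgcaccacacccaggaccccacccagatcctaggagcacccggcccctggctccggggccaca

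Icam1: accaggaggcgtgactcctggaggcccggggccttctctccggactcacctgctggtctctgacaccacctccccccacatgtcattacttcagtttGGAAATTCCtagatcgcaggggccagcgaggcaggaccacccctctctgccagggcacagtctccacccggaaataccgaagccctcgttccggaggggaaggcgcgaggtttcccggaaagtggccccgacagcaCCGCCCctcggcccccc

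The letters searched on both strands were the longer kappaB consensus (by name only), the shorter kappaB form GGAAATTCC, GAGGAA for ETS, TGANTCA for AP-1 and GGGCGG for Sp1, and none of the matches printed here overlap each other. Of the 10 genes, 7 had a promoter in the table, and Cd2, Itgal and Itgb2 had none. GGAAATTCC was found in Icam1 alone of the 7, from base -153 to -145 counted from the start site, and in 0.286% of 32851 promoters of the same length. The longer kappaB consensus was found in 0 of the 7 and in 1.41% of all promoters. GGGCGG was found in Itga4, Itgb1 and Icam1 (32.7% of all promoters), GAGGAA in Itgb1 and, on the other strand, at 2 places in Cd44 (23.3%), and TGANTCA in Cd84 (6.75%). A match describes letters in this window and is not a measured binding site.

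At D0 in CON, Cd2 was the highest of the 10 genes at 184, 194 and 190.5 FPKM and Itgb1 the lowest at 15.5, 12.5 and 16.1 FPKM. FPKM are per length, so levels can be set side by side between genes. Below Cd2 came Itgb7 (81.3 to 108), then Itgal (61.7 to 65.2), Cd48 (46.9 to 75.7), Itgb2 (50.4 to 56.7) and Itga4 (43.4 to 56.9), of which Cd48 overlaps Itgal, Itgb2 and Itga4, and Itgb2 overlaps Itga4. Cd84 (29.3 to 36.4), Icam1 (13.1 to 32.2), Cd44 (14.2 to 22.9) and Itgb1 followed, each overlapping the next. Cd2 exceeded 98.1% of the genes in the table by its mean and Itgb1 70.7%.

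The order was different at D1. In CON Itgal was then highest (81.3 to 88.1 FPKM), followed by Cd48 (70.4 to 74.8), Itgb1 (47.4 to 50.3), Icam1 (36.0 to 39.5), Itgb2 (31.2 to 37.1), Cd44 (28.7 to 30.6), Cd2 (25.8 to 28.1), Cd84 (14.2 to 16.3), Itga4 (9.11 to 9.64) and Itgb7 (7.17 to 8.77). Among neighbours in this order, only Icam1 and Itgb2 overlapped in their libraries. Itgb7 had passed from rank 2 to rank 10 and Itgb1 from rank 10 to rank 3, in both genotypes.

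**Figure D1:**
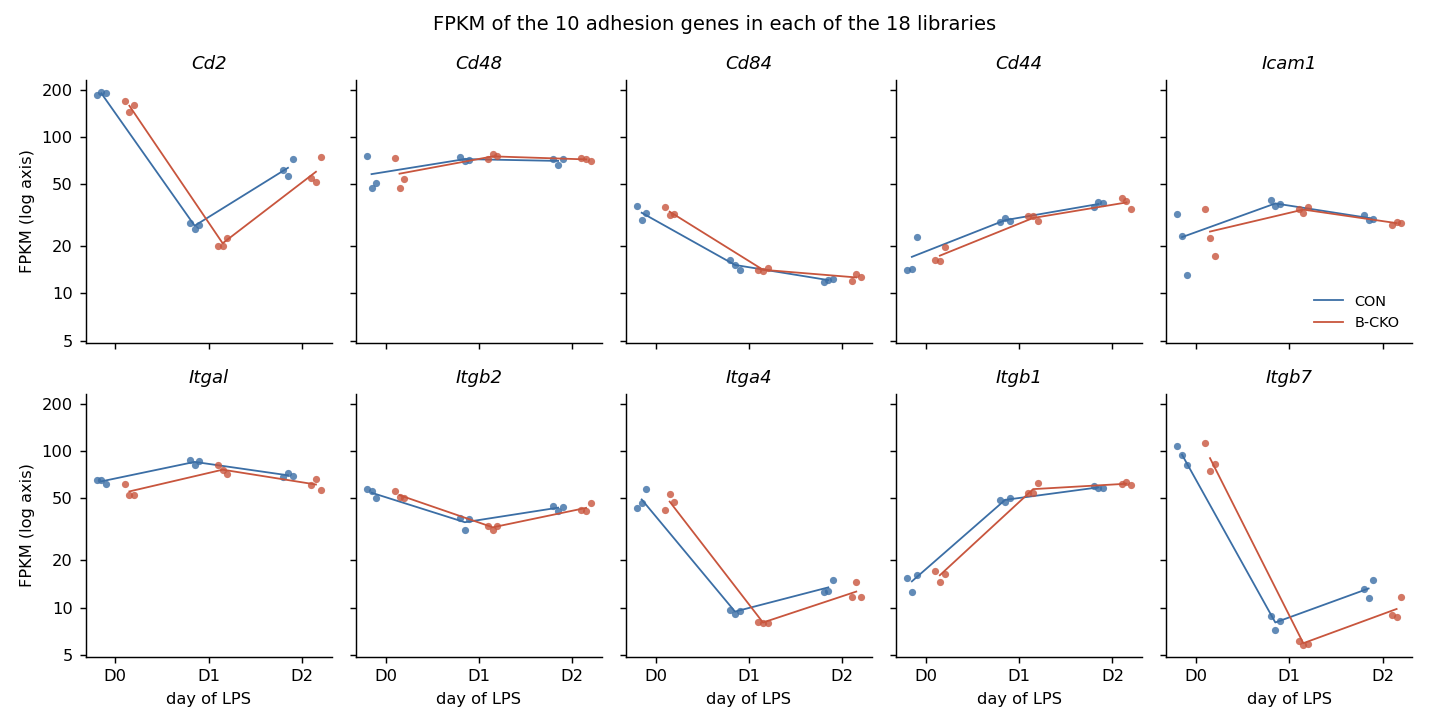
FPKM (log axis) of each of the 10 genes against day of LPS, with 1 point per library and lines through the means of 3 libraries, CON in blue and B-CKO in red. Itgb7 falls from 81.3 to 108 FPKM in CON at D0 to 7.17 to 8.77 at D1 while Itgb1 rises from 12.5 to 16.1 to between 47.4 and 50.3, and B-CKO points follow the same course.

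The first comparison asks how the B cells changed over the first day with LPS. In CON, 3 of the 10 genes rose from D0 to D1 (Itgb1, Cd44, Itgal), 5 fell (Itgb7, Cd2, Itga4, Cd84, Itgb2) and 2 did not pass the test (Cd48, Icam1). The same 8 genes passed in the same direction in B-CKO. The test was limma on log2(FPKM + 1) with Benjamini-Hochberg adjustment over all genes tested and a threshold of 0.05. Most of the transcriptome differed between these days: 57.4% of 15531 genes were called in CON (26.7% higher, 30.7% lower) and 59.8% in B-CKO (27.5% higher, 32.3% lower), so 8 of 10 genes is to be read against those shares. The median log2 fold change of the 10 genes was -0.13 in CON and -0.14 in B-CKO, beside -0.02 over all genes tested in each. The summed markers of T, myeloid and NK cells and of platelets and erythroid cells were lower at D1 than at D0 (the sums above), and their part in these changes was not tested. In bulk samples fewer cells of a type and less RNA per cell cannot be told apart.

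Itgb7 (chr15:102215994-102233405), the gut-homing beta chain, fell most. Its libraries were at 108, 94.2 and 81.3 FPKM in CON and 113, 74.5 and 82.4 in B-CKO at D0. At D1 they were at 8.77, 7.17 and 8.15 in CON and 6.14, 5.78 and 5.84 in B-CKO. Every D1 library was below every D0 library, as the days did not overlap for 63.9% of all genes tested in CON and 65.5% in B-CKO, and the B-CKO libraries at D1 were all below those of CON. The mean was 11.8-fold lower at D1 in CON (log2 fold change -3.40, SE 0.12, adjusted p = 7.35e-06) and 15.2-fold lower in B-CKO (-3.69, SE 0.15, adjusted p = 6.16e-06).

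Itga4 (chr2:79255426-79333114), the alpha chain that pairs with beta7 or beta1, fell alongside. It stood at 43.4, 46.7 and 56.9 FPKM in CON and 41.9, 52.9 and 47.5 in B-CKO at D0, and at 9.64, 9.11 and 9.52 in CON and 8.13, 7.96 and 7.98 in B-CKO at D1. The days did not overlap, and at D1 neither did the genotypes. The mean was 5.20-fold lower in CON (log2 fold change -2.25, SE 0.11, adjusted p = 1.49e-05) and 5.91-fold lower in B-CKO (-2.42, SE 0.09, adjusted p = 4.73e-06). Exons of Itga4 overlap those of Cerkl on the opposite strand, which lay between 0.38 and 0.86 FPKM, and the sources used here do not say whether counting used strand.

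Itgb1 (chr8:128685654-128733579), the beta chain shared by the VLA integrins, went the other way. Its libraries rose from 15.5, 12.5 and 16.1 FPKM to 48.3, 47.4 and 50.3 in CON, and from 17.1, 14.6 and 16.5 to 54.1, 54.2 and 62.8 in B-CKO. All D1 libraries were above all D0 libraries, and at D1 the B-CKO libraries were all above those of CON. The mean was 3.31-fold higher in CON (log2 fold change 1.67, SE 0.10, adjusted p = 3.13e-05) and 3.55-fold higher in B-CKO (1.76, SE 0.09, adjusted p = 1.14e-05).

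The chains of LFA-1 also parted. Itgal (chr7:127296139-127335137) rose from between 61.7 and 65.2 FPKM to between 81.3 and 88.1 in CON (1.33-fold, log2 fold change 0.41, SE 0.05, adjusted p = 0.000893) and from between 52.0 and 61.1 to between 71.3 and 80.9 in B-CKO (1.38-fold, 0.46, SE 0.08, adjusted p = 0.00335). Itgb2 (chr10:77530329-77565708), the beta chain it needs to reach the surface, fell from between 50.4 and 56.7 FPKM to between 31.2 and 37.1 in CON (1.54-fold lower, log2 fold change -0.61, SE 0.09, adjusted p = 0.00126) and from between 49.9 and 55.8 to between 31.5 and 33.1 in B-CKO (1.60-fold lower, -0.66, SE 0.06, adjusted p = 0.000138). Neither gene's days overlapped in either genotype.

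Icam1 (chr9:21015940-21028814), the LFA-1 ligand, had the widest spread at D0. Its D0 libraries were at 32.2, 23.4 and 13.1 FPKM in CON and 34.4, 22.8 and 17.4 in B-CKO, so that in both genotypes replicate 1 was highest and replicate 3 lowest. At D1 they were at 39.5, 36.0 and 37.2 in CON and 34.9, 32.8 and 35.4 in B-CKO. In CON the days did not overlap, and in B-CKO they did. Exons of Icam1 overlap those of Gm47079 on the opposite strand, which has no row in the table used here. The log2 fold change was 0.78 (SE 0.30, adjusted p = 0.0648) in CON and 0.50 (SE 0.23, adjusted p = 0.10) in B-CKO, neither past the threshold. With the replicate number as a block, the CON value passed (adjusted p = 0.0490). It also passed without CON D0 replicate 1 (log2 fold change 1.05, adjusted p = 0.0130) and without CON D0 replicate 3 (0.44, adjusted p = 0.0436), and the B-CKO value passed without B-CKO D0 replicate 1 (0.76, adjusted p = 0.00317). Without B-CKO D0 replicate 3 the B-CKO value was lower, at 0.28 (adjusted p = 0.226), and over all fits without 1 library the adjusted p ran up to 0.155 in CON.

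Cd2 (chr3:101275908-101287939), the receptor for CD48 in mice, fell from the highest level of the 10 genes. Its libraries went from 184, 194 and 190.5 FPKM at D0 to 28.1, 25.8 and 27.3 at D1 in CON, and from 170.0, 143 and 161 to 20.2, 19.97 and 22.6 in B-CKO. The means were 7.0-fold lower at D1 in CON (log2 fold change -2.76, SE 0.05, adjusted p = 4.97e-06) and 7.55-fold lower in B-CKO (-2.86, SE 0.08, adjusted p = 2.97e-06). T cells also express Cd2. The whole T cell marker list summed to at most 47.6 FPKM in any D0 library, and all 14 of its genes fell in both genotypes. The genotypes did not overlap at D0 or D1, with B-CKO lower on both days.

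Cd48 (chr1:171681245-171705258), the partner of CD2, did not follow it. At D0 the libraries were at 75.7, 46.9 and 50.9 FPKM in CON and 73.4, 47.0 and 54.1 in B-CKO, with replicate 1 far above the other two in both genotypes. At D1 they were at 74.8, 70.4 and 71.0 in CON and 72.5, 77.2 and 75.4 in B-CKO, so the days overlapped through replicate 1. The log2 fold change was 0.34 (SE 0.18, adjusted p = 0.143) in CON and 0.39 (SE 0.16, adjusted p = 0.0736) in B-CKO. Without replicate 1 of the D0 group both values passed, at 0.55 in CON (adjusted p = 0.000795) and 0.56 in B-CKO (adjusted p = 0.00139). Without replicate 2 they were lower, at 0.21 in CON (adjusted p = 0.361) and 0.25 in B-CKO (adjusted p = 0.183). Both also passed when libraries were scaled by the median ratio (adjusted p = 0.0449 and 0.0190).

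Cd84 (chr1:171839697-171890718), a self-binding SLAM receptor, fell in both genotypes. It went from between 29.3 and 36.4 FPKM to between 14.2 and 16.3 in CON (2.15-fold lower, log2 fold change -1.06, SE 0.10, adjusted p = 0.000178) and from between 31.7 and 35.8 to between 14.0 and 14.5 in B-CKO (2.35-fold lower, -1.17, SE 0.07, adjusted p = 1.70e-05). No library of D1 reached the lowest of D0.

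Cd44 (chr2:102811141-102901669), the hyaluronan receptor, rose. Its libraries were at 14.2, 14.3 and 22.9 FPKM in CON and 16.3, 16.1 and 19.9 in B-CKO at D0, replicate 3 being highest in both, and at 28.7, 30.6 and 28.9 and at 31.0, 31.2 and 28.8 at D1. The change was 1.71-fold in CON (log2 fold change 0.78, SE 0.18, adjusted p = 0.0109) and 1.74-fold in B-CKO (0.77, SE 0.09, adjusted p = 0.000492), with no overlap of days. Cd69 and Myc, genes that activated B cells switch on early, were already high at D0, at 228 and 229.9 FPKM on average in CON, and lower at D1, at 24.2 and 113 FPKM. The part of activation before D0 in the changes above was not tested.

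**Figure D2:**
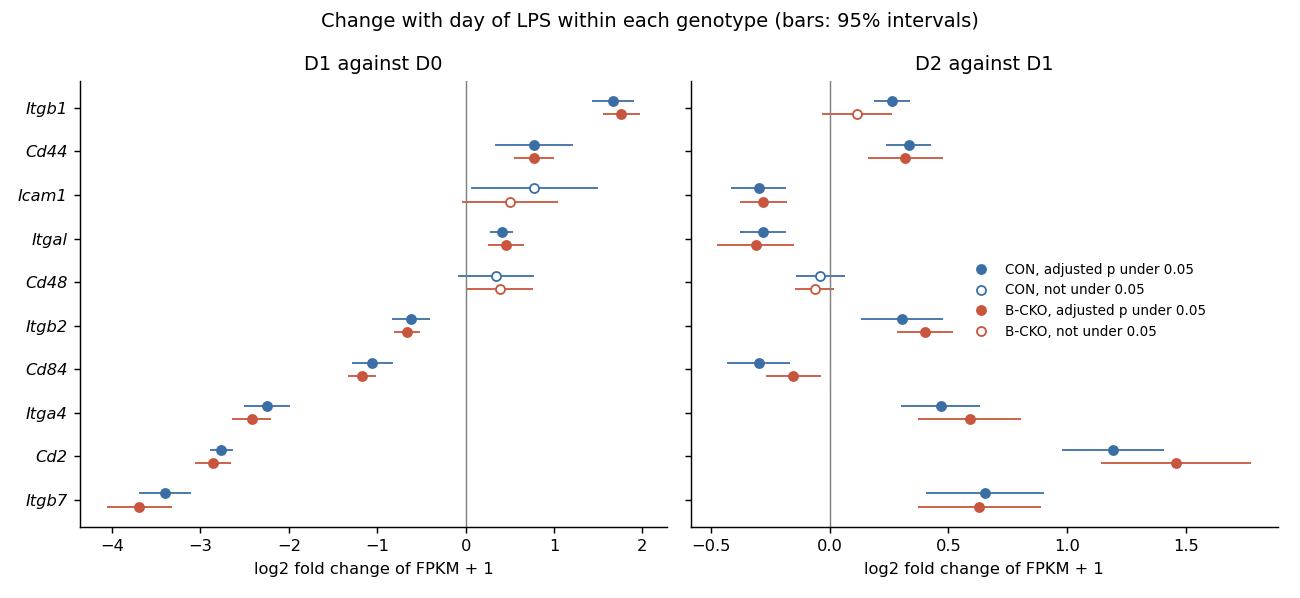
Log2 fold change of FPKM + 1 with 95% intervals from limma, for D1 against D0 (left) and D2 against D1 (right), CON in blue and B-CKO in red, filled where the adjusted p is under 0.05. From D0 to D1 Itgb7 (-3.40 in CON), Cd2 (-2.76) and Itga4 (-2.25) lie far to the left, and from D1 to D2 the same 3 genes lie to the right of 0 at 0.65, 1.19 and 0.47.

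From D1 to D2 most of the genes that had fallen recovered in part. In CON, 6 of the 10 genes rose (Cd2, Itgb7, Itga4, Cd44, Itgb2, Itgb1) and 3 fell (Icam1, Cd84, Itgal), beside 44.9% of 15178 genes called (20.1% higher, 24.8% lower). In B-CKO, 5 rose and 3 fell, beside 45.7% of 15253 genes (21.7% higher, 24.0% lower), and the 8 genes called in B-CKO were called in the same direction in CON. The median log2 fold change of the 10 genes was 0.28 in CON and 0.22 in B-CKO, against medians of all genes near 0.

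Cd2 rose most. Its D2 libraries were at 61.2, 56.4 and 72.7 FPKM in CON and 54.2, 51.5 and 73.9 in B-CKO, 2.34-fold above D1 in CON (log2 fold change 1.19, SE 0.09, adjusted p = 0.000118) and 2.86-fold in B-CKO (1.46, SE 0.13, adjusted p = 0.000177). It was still lower at D2 than at D0 in every library. From D1 to D2 the days did not overlap for 52.5% of all genes tested in CON and 53.3% in B-CKO, and from D0 to D2 for 63.2% in each. Itgb7 rose 1.65-fold in both genotypes, to 13.2, 11.6 and 14.9 FPKM in CON (log2 fold change 0.65, adjusted p = 0.00244) and 8.94, 8.74 and 11.7 in B-CKO (0.63, adjusted p = 0.00302). Itga4 rose 1.43-fold in CON, to between 12.7 and 14.9 FPKM (0.47, adjusted p = 0.00181), and 1.58-fold in B-CKO, to between 11.6 and 14.7 (0.59, adjusted p = 0.00189). These are the genes that had fallen furthest by D1.

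Itgb2 rose to between 41.3 and 44.8 FPKM in CON (1.24-fold, log2 fold change 0.30, adjusted p = 0.0126) and between 41.6 and 46.3 in B-CKO (1.33-fold, 0.40, adjusted p = 0.000678), while its partner Itgal fell to between 68.2 and 72.6 FPKM in CON (-0.28, adjusted p = 0.00170) and between 56.6 and 65.9 in B-CKO (-0.31, adjusted p = 0.00864). Icam1 fell to between 29.4 and 31.9 FPKM in CON (-0.30, adjusted p = 0.00253) and between 27.3 and 28.7 in B-CKO (-0.28, adjusted p = 0.00169). The ligand and the alpha chain of its receptor thus had their highest means of the 3 days at D1.

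Cd44 rose further, 1.27-fold in CON to between 35.9 and 38.2 FPKM (log2 fold change 0.33, adjusted p = 0.000670) and 1.26-fold in B-CKO to between 34.6 and 40.9 (0.32, adjusted p = 0.00726). Itgb1 rose 1.20-fold in CON to between 58.0 and 59.4 FPKM (0.26, adjusted p = 0.000767). In B-CKO, where it had been higher at D1, Itgb1 was at 61.3, 63.4 and 60.4 FPKM and the change did not pass (0.12, SE 0.06, adjusted p = 0.180), except without B-CKO D1 replicate 3, its highest D1 library (0.19, adjusted p = 0.0125). That difference between genotypes was -0.15 on the log2 scale (95% interval -0.31 to 0.02) and did not pass its own test (adjusted p = 0.717).

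Cd84 went on falling in CON, to between 11.8 and 12.5 FPKM (1.25-fold lower, log2 fold change -0.30, adjusted p = 0.00483). In B-CKO it fell to between 12.1 and 13.2 FPKM (1.12-fold lower, -0.15, adjusted p = 0.0406), a call that was lost with the replicate number as a block (adjusted p = 0.0740), with scaling by the median ratio (0.0782) and in 5 of the 6 fits that left out 1 library, all except that without B-CKO D2 replicate 2 (adjusted p from 0.0222 to 0.119 over the 6). Cd48 stayed between 66.5 and 72.9 FPKM in the 6 D2 libraries, with log2 fold changes of -0.04 (adjusted p = 0.530) in CON and -0.06 (adjusted p = 0.191) in B-CKO.

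Over both days, from D0 to D2, 2 genes rose and 5 fell in each genotype, beside 56.8% of 15584 genes called in CON (26.5% higher, 30.3% lower) and 57.6% of 15695 in B-CKO (27.0% higher, 30.7% lower). Itgb1 was 3.98-fold higher at D2 in CON and 3.84-fold in B-CKO, and Cd44 2.17-fold and 2.19-fold. Itgb7 was 7.15-fold lower in CON and 9.18-fold in B-CKO, Itga4 3.64-fold and 3.75-fold, Cd2 2.99-fold and 2.64-fold, and Cd84 2.69-fold and 2.63-fold. Itgb2 was 1.25-fold lower in CON (adjusted p = 0.00864) and 1.21-fold in B-CKO (adjusted p = 0.0199), and the B-CKO call was lost without B-CKO D2 replicate 1 (0.0831) or replicate 2 (0.0719). Cd48, Icam1 and Itgal did not pass in either genotype. Without replicate 1 of the D0 group, Cd48 and Icam1 passed in both, at 0.51 and 0.76 in CON (adjusted p = 0.00172 and 0.0372) and at 0.50 and 0.48 in B-CKO (0.00246 and 0.0172). Other libraries moved them the other way: without D0 replicate 2 Cd48 was at 0.17 in CON and 0.18 in B-CKO (adjusted p = 0.457 and 0.306), and without D0 replicate 3 Icam1 was at 0.14 in CON and 0.0057 in B-CKO (adjusted p = 0.439 and 0.980).

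Ratios of 2 transcripts within a library do not depend on how libraries are scaled. The ratio of Itgb1 to Itgb7, the beta chains that compete for alpha4, was between 0.133 and 0.200 in all 6 D0 libraries, so Itgb7 was the more abundant. At D1 it was between 5.51 and 6.61 in CON and between 8.81 and 10.7 in B-CKO, and at D2 between 3.90 and 5.02 in CON and between 5.17 and 7.25 in B-CKO. With genotypes pooled it was 45.5-fold higher at D1 than at D0 and 31.7-fold higher at D2 than at D0. Both had p = 0.00216 in the two-sided exact permutation test over 6 against 6 libraries, the smallest it can give, and an adjusted p of 0.00519 over the 24 ratio tests. From D1 to D2 the pooled ratio was 1.44-fold lower, which did not pass (exact permutation test, adjusted p = 0.0779). That test sets aside genotype, and within each genotype every D2 library was below every D1 library. The genotypes overlapped at D0 and not at D1 (1.58-fold higher in B-CKO) or D2 (1.43-fold). With 3 against 3 libraries the exact permutation test cannot go below 0.1, which is the value both gave (adjusted p = 0.141).

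Itga4 exceeded Itgb1 at D0, with a ratio between 2.45 and 3.72 in the 6 libraries, and lay well below it at D1, with a ratio between 0.189 and 0.199 in CON and between 0.127 and 0.15 in B-CKO. That is 18.9-fold lower with genotypes pooled (exact permutation test, adjusted p = 0.00519). The ratio rose 1.31-fold to D2 (exact permutation test, adjusted p = 0.0283), and the days overlapped with genotypes pooled but not within CON (0.213 to 0.256 at D2) or within B-CKO (0.189 to 0.231). The ratio of Itgal to Itgb2 was between 1.02 and 1.22 at D0, so these transcripts were close to equal. It was between 2.15 and 2.61 at D1 (2.13-fold higher) and between 1.22 and 1.76 at D2 (1.58-fold below D1), both at an adjusted p of 0.00519 in the exact permutation test. The ratio of Cd2 to Cd48 fell 9.41-fold, from between 2.32 and 4.15 to between 0.259 and 0.384, and rose 2.66-fold to between 0.715 and 1.05 at D2, again at an adjusted p of 0.00519 in the exact permutation test. At D1 the ratios of Itga4 to Itgb1 and Cd2 to Cd48 were lower in B-CKO without overlap, each at the smallest p of the exact permutation test (0.1). The ratio of Itgal to Itgb2 was lower in B-CKO without overlap at D0, at the same p (adjusted p = 0.141).

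**Figure D3:**
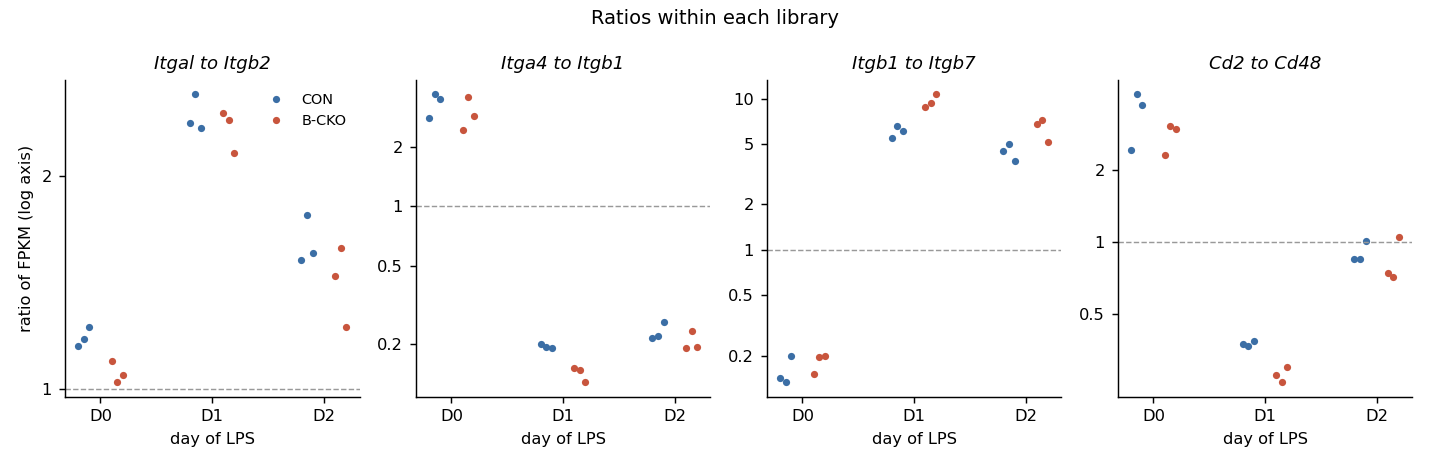
Ratio of the FPKM of 2 genes within each library (log axis) against day of LPS, 1 point per library, CON in blue and B-CKO in red, with a dashed line at 1. The ratio of Itgb1 to Itgb7 lies between 0.133 and 0.200 at D0 and between 5.51 and 10.7 at D1, with the B-CKO points above those of CON at D1 and D2.

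The second comparison asks what loss of Zbtb24 in B cells changed at each day. Over the 12 B cell markers the median at D1 was -0.14 on the log2 scale, and its part in the results below was not tested. None of the 10 genes passed limma's adjusted threshold at D0, D1 or D2, where 0%, 0.0993% and 0.0460% of all genes tested did. At an unadjusted p under 0.05, 2, 6 and 2 of the 10 genes passed, beside 2.00%, 16.3% and 7.71% of all genes tested. At D1 the intervals of all 10 genes lay within 1.5-fold in either direction, at D0 those of 9 (not Icam1) and at D2 those of 9 (not Itgb7).

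The libraries of the genotypes did not overlap for 6 of the 10 genes at D1, beside 20.1% of all genes tested (8.43% higher, 11.7% lower). Cd2, Itgb7, Itga4, Itgal and Icam1 were lower in B-CKO and Itgb1 was higher. Cd2 was lower by 22.7% (log2 fold change -0.36, 95% interval -0.49 to -0.23, adjusted p = 0.0724) and Itgb7 by 26.3% (-0.38, -0.56 to -0.21, adjusted p = 0.0982). Itga4 was lower by 14.9% (-0.21, -0.31 to -0.11, adjusted p = 0.0991), Itgal by 10.8% (-0.16, -0.29 to -0.04, adjusted p = 0.195) and Icam1 by 8.60% (-0.13, -0.23 to -0.02, adjusted p = 0.232). Itgb1 was higher by 17.1% (0.22, 0.08 to 0.37, adjusted p = 0.154). The intervals of these 6 genes exclude 0 and their adjusted p-values do not pass.

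The call at D1 depends on which genes are tested with them. With genes under a mean of 1 FPKM left out of the fit, Cd2 (adjusted p = 0.0128), Itgb7 (0.0188) and Itga4 (0.0361) passed as lower in B-CKO, and the genes called in all rose from 15 to 388. With that filter and the replicate number as a block, a fit chosen after seeing the data, Itgal (0.0484) passed as well as lower and Itgb1 (0.0225) as higher, beside 704 genes in all. The other 4 genes had log2 fold changes between -0.10 and 0.06 at D1.

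At D0 and D2 fewer genes parted. At D0 Cd2 (16.6% lower in B-CKO, log2 fold change -0.26, 95% interval -0.47 to -0.06) and Itgal (13.8% lower, -0.21, -0.42 to -0.01) did not overlap between genotypes, beside 3.87% of all genes tested (1.92% higher, 1.94% lower), and the adjusted p of all 10 genes was 1.00. Without pairing, the intervals of Cd48, Icam1 and Itgb7 ran from -0.54 to 0.57, from -0.74 to 1.03 and from -0.52 to 0.35. Between same-numbered libraries, B-CKO minus CON on the log2 scale ran from -0.04 to 0.09 for Cd48, from -0.04 to 0.38 for Icam1 and from -0.34 to 0.06 for Itgb7. Itgb1 was higher in B-CKO in 3 of 3 pairs (0.03 to 0.21), and Cd2, Itgal and Itgb2 were lower in 3 of 3. How many of all genes had the same sign in 3 of 3 pairs was not counted, so this is no result about these genes. Blocking on replicate number, none of the 10 genes passed at D0 (limma, adjusted p from 0.843 to 0.966). At D2 Itgal (12.7% lower, -0.19, -0.34 to -0.05, adjusted p = 0.466) and Icam1 (7.35% lower, adjusted p = 0.653) were lower and Itgb1 was 5.46% higher (adjusted p = 0.676) without overlap, beside 11.1% of all genes (4.89% higher, 6.24% lower). Itgb7 was 26.0% lower at D2 (-0.40, -0.71 to -0.10, adjusted p = 0.484), with its highest B-CKO library at 11.7 FPKM and its lowest CON library at 11.6. It passed at D2 with the block and the filter (adjusted p = 0.0201). The sources used here do not say whether a replicate number is the same mouse on each day, so the days may not be independent.

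**Figure D4:**
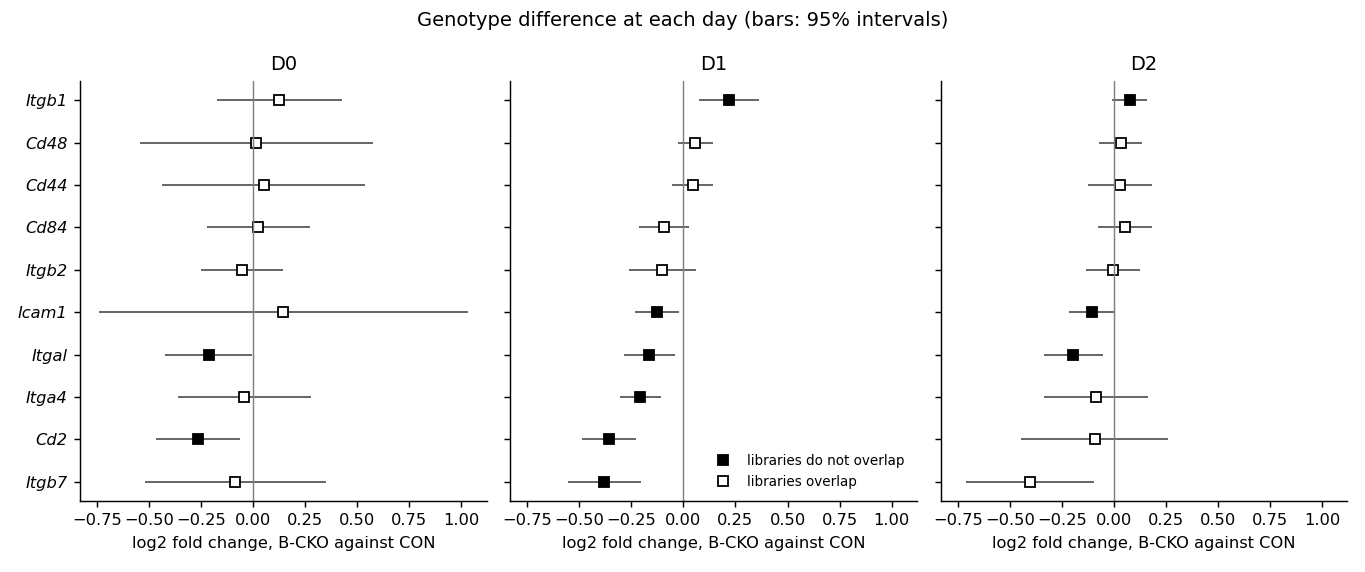
Log2 fold change of B-CKO against CON with 95% intervals from limma at D0, D1 and D2, filled squares where the 3 libraries of one genotype all lie on the same side of the other. At D1 Itgb7 (-0.38), Cd2 (-0.36), Itga4 (-0.21), Itgal (-0.16) and Icam1 (-0.13) lie left of 0 and Itgb1 (0.22) lies right of it.

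Whether the change with time differed between genotypes was tested directly, and 0 of the 10 genes passed from D0 to D1, D1 to D2 or D0 to D2 in limma, with 0 at an unadjusted p under 0.05 as well. Over all genes tested 0% passed, and 2.89%, 7.31% and 2.60% had an unadjusted p under 0.05. From D0 to D1 the differences were widest for Itgb7 (-0.29, 95% interval -0.76 to 0.17) and Icam1 (-0.27, -1.18 to 0.64). In this fit differences of up to these bounds remain possible, but it sets aside the replicate numbers, which pair the samples at D0. Without 1 library the Itgb7 value ranged from -0.42 to -0.12. From D1 to D2 the differences of Cd84 (0.15, -0.01 to 0.30) and Itgb1 (-0.15, -0.31 to 0.02) came nearest to the threshold, with adjusted p-values of 0.711 and 0.717. Leaving out 1 library moved these values to between 0.099 and 0.19 for Cd84 and between -0.18 and -0.075 for Itgb1.

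The genes around these molecules were followed by list, and each count is to be read against the shares of all genes tested: 26.7% higher and 30.7% lower in CON and 27.5% and 32.3% in B-CKO from D0 to D1, and 20.1% and 24.8% in CON and 21.7% and 24.0% in B-CKO from D1 to D2. Of the other integrin subunits, 20 were tested in CON from D0 to D1, of which 1 rose and 10 fell, and in B-CKO 1 rose and 10 fell of 17. Only 4 of them averaged 1 FPKM or more at D0 in either genotype, and 2 in CON and 3 in B-CKO at D1. Most of these falls were thus of genes under 1 FPKM. Itgb3, the beta chain of vitronectin receptors, fell from 6.78 to 0.890 FPKM on average in CON and from 5.85 to 0.743 in B-CKO (log2 fold change -2.01 and -1.97, adjusted p = 0.000209 and 1.23e-05). Itga6, a laminin receptor chain, fell from 4.52 to 0.987 FPKM in CON (-1.47, adjusted p = 0.000104). Itgam, the alpha chain of Mac-1, rose from 0.977 to 2.42 FPKM in CON (0.79, adjusted p = 0.00245) and was at 4.95 FPKM at D2. Platelets also carry Itgb3 and Itga6, and of 10 platelet and erythroid markers tested in CON 6 fell and 1 rose between these days. That list mixes 2 cell types, so its counts do not speak of platelets alone. In CON at D0 its highest gene was the haemoglobin gene Hba-a1 (7.77 FPKM), and the platelet gene Pf4 was at 0 in all 3 libraries. The part of platelets in the falls of Itgb3 and Itga6 was not tested. The list of other integrin subunits summed to at most 28.1 FPKM in any library, so the integrin transcripts of these cells were mostly those of the 5 chains described above.

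Genes that switch integrins to or from the binding state were followed as 1 list, activators and inhibitors together. Of 32 tested in CON, 20 fell and 4 rose from D0 to D1 (median log2 fold change -0.54, against -0.02 over all genes), and of 31 in B-CKO 21 fell and 4 rose (-0.71). From D1 to D2, 11 rose and 6 fell in CON and 16 rose and 6 fell in B-CKO. Rasgrp2, which activates the GTPase Rap1, fell from 157 to 25.9 FPKM in CON and from 165 to 24.4 in B-CKO (-2.54 and -2.70, adjusted p = 3.96e-05 and 5.81e-06). Cytip, which restrains LFA-1 adhesion through cytohesin-1, fell from 125 to 24.8 FPKM in CON (-2.08, adjusted p = 0.00883), and Rap1gap, which turns Rap1 off, from 5.77 to 0.697 (-1.99, adjusted p = 2.43e-05). Both activators and inhibitors were thus among those that fell.

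Of 17 ligands and related adhesion molecules, 2 rose and 3 fell in CON from D0 to D1, and 3 rose and 5 fell in B-CKO, beside 57.4% and 59.8% called over all genes. Pecam1, a homophilic adhesion receptor, fell from 78.5 to 35.6 FPKM in CON (-1.12, adjusted p = 9.22e-06) and Icam2, another LFA-1 ligand, from 37.8 to 16.7 (-1.08, adjusted p = 0.00883). Tigit, a receptor for nectin family ligands, rose from 3.29 to 7.21 FPKM in CON (0.94, adjusted p = 0.000335). Among the other SLAM family genes and their adaptors, 0 of 9 rose and 2 fell in CON, and 1 rose and 5 fell of 9 in B-CKO, beside the same 57.4% and 59.8%. Ly9, a SLAM receptor and the most abundant of that list, was at 71.2 FPKM in CON at D0 and 55.6 at D1.

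The partners of CD44 and CD2 moved both ways, with 4 higher and 5 lower of 13 in CON and 3 higher and 7 lower of 14 in B-CKO from D0 to D1. Cd74, the invariant chain, which binds CD44 at the surface, fell from a mean of 10459 to 2945 FPKM in CON (-1.83, adjusted p = 3.13e-05). Ezr, ezrin, which links CD44 to actin, fell from 378 to 137 (-1.42, adjusted p = 0.00102), and Hyal2, a hyaluronidase, rose from 1.54 to 5.97 (1.51, adjusted p = 0.00165). Of 13 tetraspanins, which organise integrins in the membrane, 2 rose and 8 fell in CON and 2 rose and 10 fell in B-CKO. Cd37, a tetraspanin of mature B cells, fell from 1119 to 447 FPKM in CON (-1.32, adjusted p = 3.13e-05), Tspan13 from 67.2 to 21.6 (-1.59, adjusted p = 3.78e-05) and Tspan32 from 71.3 to 25.9 (-1.42, adjusted p = 5.25e-05). From D1 to D2, 7 tetraspanins rose and 1 fell in CON, and 8 rose and 0 fell in B-CKO. In none of these lists did a gene pass limma's adjusted threshold between genotypes at any day.

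The 12 LPS response genes split as well, with 7 higher and 4 lower in CON from D0 to D1. Ccnd2, a G1 cyclin, rose from 14.1 to 190.0 FPKM in CON (3.67, adjusted p = 4.97e-06) and Mki67, a proliferation marker, from 3.55 to 30.8 (2.82, adjusted p = 1.77e-05).

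Across the 18 libraries, which share their days and genotypes, the 10 genes fell into 2 opposed groups on the log2(FPKM + 1) scale. Itga4 and Itgb7 had a Pearson correlation of 0.98, Cd2 correlated with Itgb2 (0.97), Itga4 (0.95) and Itgb7 (0.94), and Itgb1 correlated with Cd44 (0.94) and inversely with Cd84 (-0.98), Itgb7 (-0.95) and Itga4 (-0.94). These values describe mainly the steps between days. Cd48, Icam1 and Itgal had no correlation above 0.79 in size with another of the 10.

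Among 7925 other genes averaging 5 FPKM or more, those most like each gene over the 18 libraries were taken by the same correlation. Itgb7 was most like Arhgap45 (0.997), Zfp36 and Fcgrt, Itga4 like Klhl24 (0.997), Fbxl20 and Map3k1, and Cd2 like Acss1 (0.995), Hdac5 and Ypel3. Cd84 was most like Cr2 (0.996), which encodes complement receptor 2, then Dclk2 and Trim12a, and Itgb2 like Itm2b (0.984), Themis2 and Tle5. Itgb1 was most like Rfc5 (0.996), Mrpl45 and Wdhd1, and Cd44 like Atad1 (0.991), Dgcr6 and Nucks1. The closest matches of Icam1 (Pigbos1, 0.968), Cd48 (Irgm2, 0.936) and Itgal (Dnlz, 0.906) were looser.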

How the data were processed

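Paired reads had been mapped to mm10 with bowtie2 and quantified by RSEM and Cufflinks. The authors deposited the resulting FPKM, with 2 decimals, for 16545 genes. The submitters' notes also name BWA and DESeq2, and versions and annotation are not given in the sources used here. Of the NCBI gene IDs, 16512 matched RefSeq symbols (GRCm38.p6) and 33 were kept under their ID. Fragment counts are unknown. Relative depth from steps between low values was approximately 0.905 to 0.958 at D0, 1.03 to 1.12 at D1 and 0.960 to 1.04 at D2.

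Values were tested as log2(FPKM + 1) with limma 3.58.1 (R 4.3.3; lmFit, eBayes with a trend) on the 6 libraries compared, or 12 for the difference between genotypes in a change, leaving out genes at 0 in all of them, with Benjamini-Hochberg adjustment over all genes. FPKM are not counts, so no count test was used. The fit was tested on simulated data. A fold is the ratio of mean FPKM. A log2 fold change is on the log2(FPKM + 1) scale, which understates changes of low genes. Ratios were tested by exact permutation (scipy 1.17.1).

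Members and lists were chosen with earlier results of these data known. Named beside the members were, per list, up to 3 genes of at least 1 FPKM with the largest change from D0 to D1 in CON among those passing in both genotypes, and per member the 3 genes most like it. Ly9, Myc, Cd79a and the CD3 genes were chosen after their values were seen. 1 item that bears on the genotype comparisons is not reported here.

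Deviations from group means of same-numbered CON and B-CKO libraries correlated at 0.85, 0.47 and 0.79 at D0, so there the numbers pair the samples. At D1 (0.10, 0.20, 0.091) and D2 (-0.037, 0.22, 0.23) these correlations were weaker. CON libraries correlated best with the B-CKO library of their own number for 3 of 3 at D1 and 2 of 3 at D2. Whether the numbers pair the samples on these days is not settled. In the replicate block over days, a number within a genotype was taken to name a mouse, which the labels do not state. The main fits over days and the ratio tests used no such pairing. Between days, deviations of same-numbered libraries correlated at -0.087 to 0.15 in CON and at 0.012 to 0.19 in B-CKO. Alternatives were a pseudocount of 0.1, a filter at 1 FPKM, conversion to TPM, median-ratio scaling, eBayes without a trend, the replicate block and leaving out each library.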

Additional observations from a re-analysis of the deposited data

How the results depend on the processing

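Without 1 library at a time, the number of the 10 genes called ranged from 8 to 10 for D1 against D0 in both genotypes, stayed at 9 for D2 against D1 in CON, and ranged from 7 to 8 in B-CKO. For D2 against D0 it ranged from 7 to 9 in CON and from 6 to 9 in B-CKO, and it stayed at 0 for the genotypes at each day and for the difference in change. Over all genes these fits called 7528 to 9417 for D1 against D0 in CON (15531 tested in the full fit). In B-CKO they called 8126 to 9740 (15551 tested). For D2 against D1 they called 5739 to 6825 in CON and 5705 to 7124 in B-CKO (15178 and 15253 tested). For D2 against D0 they called 7592 to 9208 and 7749 to 9320 (15584 and 15695 tested). Scaling by the median ratio gave 10 calls for D1 against D0 in both genotypes, and for D2 against D0 8 in CON (Itgal, adjusted p = 0.0301) and 9 in B-CKO (Cd48, 0.0351, and Itgal, 0.0361). The filter at 1 FPKM gave 9 for D1 against D0 in both, through Icam1 in CON (0.0379) and Cd48 in B-CKO (0.0451). Shares of all genes called with the median ratio or the filter are not given here for the days. These counts are thus no result about the 10 genes. Rescaling to TPM moved the median of all genes by -0.15 from D0 to D1 and by -0.19 (CON) and -0.20 (B-CKO) from D0 to D2, and changed no call of the 10 genes.

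For the genotypes at D1 the filter gave 3 calls, and with the replicate block 5, while at D2 the block and filter gave 1. Over all genes, the calls for the genotypes went from 0 to 2 (filter) and 22 (filter and block) at D0. At D1 they went from 15 to 46 (pseudocount 0.1), 388 (filter), 5 (block) and 704 (filter and block), and at D2 from 7 to 29 (filter), 3 (block) and 116 (filter and block). The filter with the block was chosen after seeing the data. Without 1 library the calls over all genes ranged from 0 to 1 at D0, 5 to 18 at D1 and 0 to 6 at D2. For the difference in change from D0 to D2 they went from 0 to 1 with the median ratio. The block alone changed 2 calls of the 10 genes, Icam1 for D1 against D0 in CON and Cd84 for D2 against D1 in B-CKO, and no other. The causes of these shifts were not tested.

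Changes of sign fell on values near 0 that had not passed: Itgb2 between genotypes at D2 (0.0097), Cd48 for D2 against D1 in CON (0.0015) and Cd44 in the difference between genotypes for D1 against D0 (0.0040), all with the median ratio, and Itgal for D2 against D0 with TPM (-0.081 in CON, -0.072 in B-CKO). Leaving out 1 library reversed 22 of 180 genotype values and 45 of 360 differences in change, and 0 of 360 changes with day.

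Without 1 library, the log2 values that changed sign ranged, for B-CKO against CON at D0, as Cd44 -0.059 to 0.27, Itgb7 -0.26 to 0.037, Cd48 -0.16 to 0.22, Cd84 -0.049 to 0.10, Icam1 -0.19 to 0.42 and Itga4 -0.12 to 0.069. For B-CKO against CON at D2 they were Itgb2 -0.053 to 0.021, Cd48 -0.0058 to 0.055, Cd2 -0.25 to 0.0081 and Cd44 -0.021 to 0.10. For the difference between genotypes in D1 against D0 they were Cd48 -0.17 to 0.22, Cd44 -0.22 to 0.10 and Icam1 -0.55 to 0.066. For the difference between genotypes in D2 against D1 they were Icam1 -0.016 to 0.055, Itgal -0.086 to 0.021, Itgb7 -0.14 to 0.063 and Cd44 -0.066 to 0.051. For the difference between genotypes in D2 against D0 they were Cd48 -0.19 to 0.19, Cd84 -0.049 to 0.10, Cd44 -0.24 to 0.089, Itga4 -0.16 to 0.036, Itgb1 -0.12 to 0.052, Icam1 -0.53 to 0.086, Itgal -0.037 to 0.094 and Itgb2 -0.0014 to 0.10.

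The tests of the ratios over days cannot pass with 4 libraries against 4 after adjustment, and without 1 replicate number their log2 differences ranged as follows. For Itgal to Itgb2 they were 1.04 to 1.15 for D1 against D0, -0.70 to -0.64 for D2 against D1 and 0.34 to 0.50 for D2 against D0. For Itga4 to Itgb1 they were -4.41 to -4.14 for D1 against D0, 0.32 to 0.47 for D2 against D1 and -3.93 to -3.77 for D2 against D0. For Itgb1 to Itgb7 they were 5.46 to 5.59 for D1 against D0, -0.62 to -0.36 for D2 against D1 and 4.86 to 5.23 for D2 against D0. For Cd2 to Cd48 they were -3.41 to -3.09 for D1 against D0, 1.32 to 1.47 for D2 against D1 and -1.94 to -1.64 for D2 against D0.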
